A study of Homo sapiens with 12 samples.

Results

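The 10 squamous lineage transcription factor genes TP63, SOX2, PITX1, TFAP2A, TFAP2C, GRHL1, GRHL2, GRHL3, KLF5 and OVOL1 were followed among the 39368 gene symbols counted in each of 2 human HNSCC cell lines. They were taken by symbol, and all 10 had a row in both tables and passed the filter on low counts in both lines. CAL27 and HSC3 are established HPV-negative lines, and the cells carried a tet-MUC1shRNA that is induced by doxycycline (DOX). Cells of each line were treated with vehicle (0.1% DMSO) or with 500 ng/mL DOX for 7 days, with 3 poly(A) RNA-seq libraries in each of the 4 groups, 12 in all. The shRNA vector was present in the cells of all 4 groups, and DOX-treated tet-CshRNA cells were not analysed here, so the effects of MUC1 silencing and of DOX or the induced shRNA as such cannot be told apart. The samples are described as cultures in triplicate, and p-values measure the spread between these cultures.

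Squamous epithelia renew from a basal layer, and p63 is the factor that maintains basal cells. Most of the p63 made in squamous cells is ∆Np63, which starts at an internal promoter of TP63 and lacks the N-terminal transactivation domain of TAp63. SOX2 is amplified together with TP63 in many squamous carcinomas, and KLF5, TFAP2A and TFAP2C are found with p63 at enhancers of keratinocytes. PITX1 is a homeobox factor of oral epithelium and of squamous carcinoma cells. The grainyhead-like factors GRHL1, GRHL2 and GRHL3 control epithelial junction and barrier genes, and OVOL1 is a zinc finger repressor of progenitor and mesenchymal genes in differentiating epithelium.

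Library totals ran from 92866845 to 126328662 counts in CAL27 cells and from 89730914 to 169065103 in HSC3 cells. The number of counts that 1 molecule gave was estimated at 2.66 to 3.24 in CAL27 vehicle, 3.08 to 3.55 in CAL27 DOX, 4.40 to 7.66 in HSC3 vehicle and 9.14 to 17.5 in HSC3 DOX libraries, so low counts in HSC3 cells stand for few molecules. MUC1 itself went from 55.3 ± 2.79 to 2.98 ± 0.249 CPM (SD, n = 3) with DOX in CAL27 cells and from 1.76 ± 0.186 to 0.236 ± 0.0928 CPM (SD, n = 3) in HSC3 cells. The 2 falls of MUC1 start from unlike levels, as its baseline was lower in HSC3 cells (log2 difference -4.98, standard error 0.15, edgeR adjusted p = 1.7e-13). Its HSC3 DOX libraries had only 46, 36 and 16 counts. All 10 squamous carcinoma cell markers (among them KRT5, KRT14 and CDH1) were above 1 CPM in every group. Their summed level was 6352 to 6654 CPM in CAL27 vehicle and 3238 to 3495 CPM in CAL27 DOX libraries, and 6222 to 6920 and 3431 to 3703 CPM in the same HSC3 groups. Of the other marker lists, the summed level was 4.20 to 14.2 CPM for 7 fibroblast, 0.222 to 6.17 CPM for 6 leukocyte, 0.135 to 15.3 CPM for 4 endothelial and 23.3 to 35.5 CPM for 9 glandular epithelial cell genes, and some of these genes were expressed. In CAL27 vehicle libraries CDH5 was at 14.6 ± 0.265, COL1A1 at 8.40 ± 0.511, CD14 at 4.70 ± 0.248, COL1A2 at 2.24 ± 0.154 and LUM at 2.09 ± 0.228 CPM (SD, n = 3), while PTPRC, PECAM1 and DCN had means under 0.1 CPM in every group. In HSC3 vehicle libraries COL1A1 was at 4.59 ± 0.336 and CD14 at 1.03 ± 0.133 CPM (SD, n = 3), and the others of these genes had means under 0.1 CPM. The summed levels of the squamous markers in both lines and of the fibroblast, leukocyte and endothelial genes in CAL27 cells were lower in every DOX than in every vehicle library, that of the fibroblast genes in HSC3 cells was higher, and their part in the results was not tested. Levels are CPM, a gene's count scaled to a common library total with TMM over all 12 libraries. Comparisons between genes use RPKM, which is CPM per kilobase of the union of annotated exons.

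TP63 occupies chr3:189631389-189897276 on the plus strand of GRCh38. Of its 14 annotated transcripts, 6 begin at the upstream start and 8 at the internal start, 158270 bp downstream, and counts by symbol sum both kinds. The forward and reverse primers of the study's ∆Np63 qRT-PCR are shown because they tell the 2 kinds apart. Both are found in 7 of the 14 transcripts, all 7 with the internal start.
∆Np63 qRT-PCR forward: gaaaacaatgcccagactcaa
∆Np63 qRT-PCR reverse: tgcgcgtggtctgtgtta

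SOX2 is a gene of a single exon at chr3:181711925-181714436, within an intron of SOX2-OT on the same strand. KLF5 lies at chr13:73054976-73077541 on the plus strand and has a pair of starts in the RefSeq promoter table. Upstream sequence of TP63, SOX2 and KLF5 is shown because these were the members with the largest falls in level. For TP63 it is the 250 bases before the internal start (chr3:189789409-189789658, plus strand), and capitals mark the bases inside the study's ∆Np63 ChIP-PCR product. For SOX2 it is chr3:181711563-181711812 (plus strand), and capitals mark the ChIP-PCR product, which ends 215 bases before the start of SOX2. For KLF5 it is the 250 bases before the downstream start (chr13:73058755-73059004, plus strand, RefSeq on GRCh38), and capitals mark a match to GGGCGGGG, the letters bound by KLF and SP factors, here on the opposite strand.
TP63 internal start: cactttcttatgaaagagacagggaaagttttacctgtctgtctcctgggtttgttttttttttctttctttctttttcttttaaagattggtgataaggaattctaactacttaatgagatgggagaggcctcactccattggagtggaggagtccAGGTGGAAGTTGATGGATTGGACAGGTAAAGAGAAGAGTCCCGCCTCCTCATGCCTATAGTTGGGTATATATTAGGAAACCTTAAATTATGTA
SOX2 upstream: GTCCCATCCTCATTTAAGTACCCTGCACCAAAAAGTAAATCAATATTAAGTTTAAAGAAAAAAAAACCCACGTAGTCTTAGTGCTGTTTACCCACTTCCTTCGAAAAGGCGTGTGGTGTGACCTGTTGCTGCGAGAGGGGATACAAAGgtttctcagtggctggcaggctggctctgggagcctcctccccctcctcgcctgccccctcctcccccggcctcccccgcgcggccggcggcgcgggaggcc
KLF5 downstream start: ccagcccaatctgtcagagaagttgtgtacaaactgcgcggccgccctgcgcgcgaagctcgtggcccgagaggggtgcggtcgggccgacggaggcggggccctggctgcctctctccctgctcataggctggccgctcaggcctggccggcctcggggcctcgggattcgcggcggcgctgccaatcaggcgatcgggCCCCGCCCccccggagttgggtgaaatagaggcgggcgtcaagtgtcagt

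STAT factors bind palindromes that are written here as TTCNNNGAA. This motif was searched on both strands of the 250-base windows before the starts of 7 members in the RefSeq promoter table, and in the windows printed above. Member entries on chromosome 8, where GRHL2 lies, were left out of the search, and no entry was used for TFAP2C and OVOL1. The STAT motif was found in none of the windows searched, while 6.57% of all promoter windows of 250 bases hold it. GGGCGGGG was found before the starts of GRHL1 (3 matches), SOX2 (1), PITX1 (1) and the downstream start of KLF5 (1), against 21.8% of all promoter windows. GCCNNNGGC, the letters of TFAP2 factors, was found before SOX2 and 1 start of GRHL3 (19.8% of all windows), and ACAATG, the letters of SOX factors, before both starts of GRHL3 and the upstream start of KLF5 (9.29% of all windows). AACCNGTT of GRHL factors (1.49% of all windows) and TAATCC of PITX factors (5.62%) were found in none. Both strands were searched and no motif contains another. These matches only describe the letters of the windows.

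At baseline the 10 genes spanned a wide range. In CAL27 vehicle libraries the order per length was TP63 at 114 ± 3.72 RPKM (SD, n = 3), KLF5 at 94.6 ± 5.76, GRHL2 at 21.0 ± 0.116, TFAP2C at 16.2 ± 0.130, TFAP2A at 11.9 ± 0.311, SOX2 at 11.1 ± 0.176, PITX1 at 8.37 ± 0.508, GRHL1 at 1.49 ± 0.122, OVOL1 at 0.897 ± 0.0924 and GRHL3 at 0.0970 ± 0.00644. No pair of neighbours in that order overlapped between the libraries. In HSC3 vehicle libraries KLF5 came above TP63, at 155 ± 5.14 and 108 ± 1.21 RPKM (SD, n = 3). They were followed by TFAP2A at 27.2 ± 0.863, GRHL2 at 17.3 ± 0.588, PITX1 at 11.003 ± 1.67 and TFAP2C at 8.21 ± 0.636 RPKM. The last 4 were GRHL3 at 0.324 ± 0.118, GRHL1 at 0.253 ± 0.0518, OVOL1 at 0.195 ± 0.0862 and SOX2 at 0.177 ± 0.0274 RPKM, and the libraries of each of these overlapped those of its neighbour. With the length of the longest transcript in place of the union of exons, TFAP2A moved from position 5 to position 3 in CAL27 cells, GRHL2 and TFAP2C each moved 1 position down, SOX2 and PITX1 changed places, and the order in HSC3 cells was the same.

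**Figure D1:**
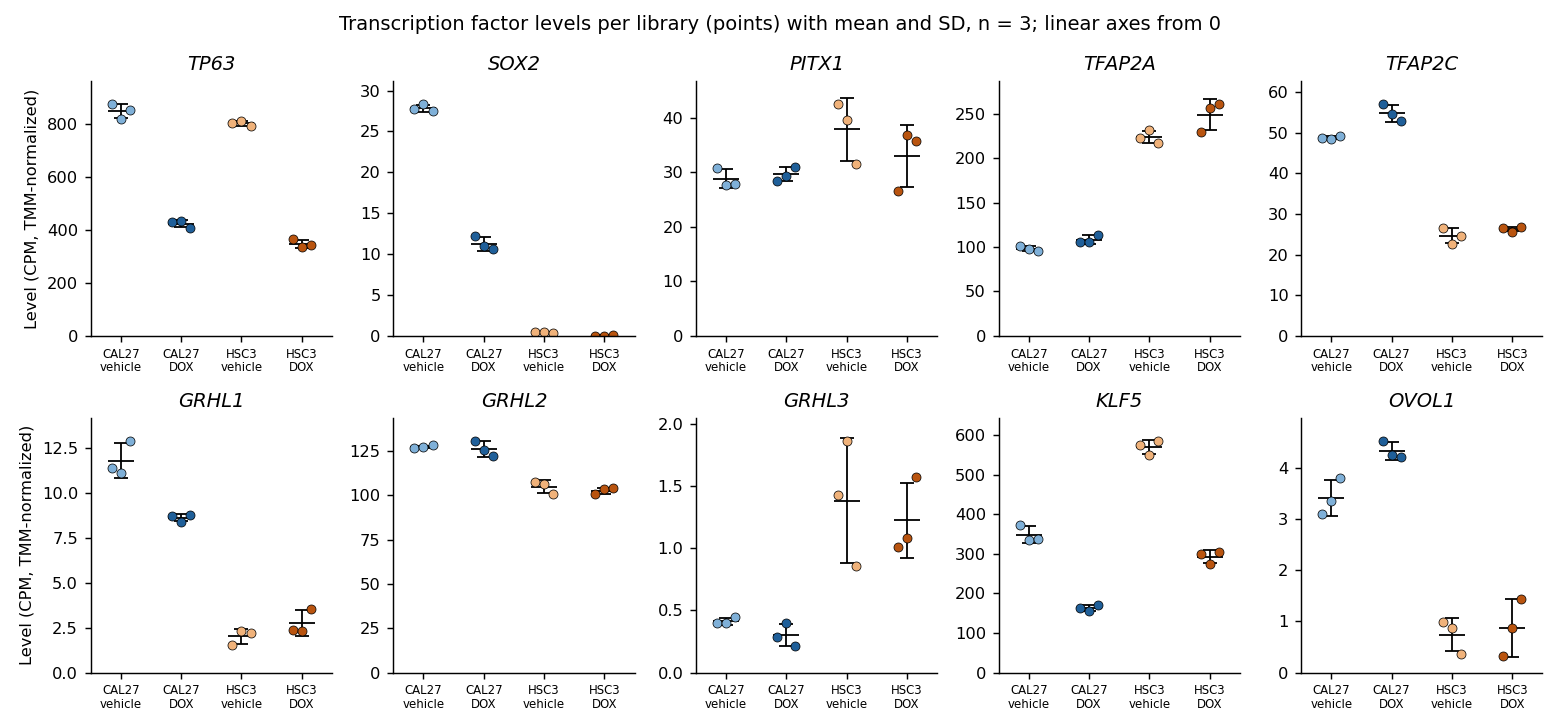
Level of each of the 10 genes in CPM (vertical, linear axes from 0, each panel with its own scale) in each library of the 4 groups, with the group mean and SD. TP63 and KLF5 are lower with DOX in both lines, while GRHL2 sits between 101 and 131 CPM in all 12 libraries.

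The question of the baseline comparison is how the 2 lines differ in these factors before induction of the shRNA. In 1 fit of all 12 libraries, 5 members were lower and 4 higher in HSC3 than in CAL27 vehicle libraries at an adjusted p under 0.05 (edgeR quasi-likelihood test, Benjamini-Hochberg over 20694 genes). Over all genes tested, 32.3% were lower and 30.6% higher, and most genes thus also differed between the lines. Past a 2-fold difference, SOX2, GRHL1 and OVOL1 were lower (18.7% of all genes) and TFAP2A and GRHL3 were higher (13.2% of all genes). The median log2 difference was -0.18 over the members and -0.12 over all genes. The study grew CAL27 cells in DMEM and HSC3 cells in minimum essential medium, and each line was counted in a table of its own. Line, medium and table cannot be told apart in this comparison, nor in the difference between lines in the response to DOX. In such bulk samples, fewer cells of a type and less RNA per cell cannot be told apart either.

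SOX2 had the largest difference. Its counts were 3825, 3069 and 3330 in CAL27 vehicle and 58, 38 and 44 in HSC3 vehicle libraries, or 27.8 ± 0.442 and 0.445 ± 0.0688 CPM (SD, n = 3). The log2 difference was -5.97 (standard error 0.21, edgeR adjusted p = 1.1e-12), with every HSC3 library far under every CAL27 library. At 4.40 to 7.66 counts per molecule, the HSC3 vehicle counts stand for an estimated 8.38, 8.63 and 5.75 molecules. SOX2-OT, the long noncoding RNA in whose intron SOX2 lies, was also lower in HSC3 vehicle libraries, at 0.263 ± 0.108 against 1.17 ± 0.188 CPM (SD, n = 3, log2 difference -2.16, standard error 0.51, edgeR adjusted p = 0.0015).

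GRHL1 was at 11.4, 11.1 and 12.9 CPM in CAL27 and at 1.54, 2.31 and 2.19 CPM in HSC3 vehicle libraries (log2 difference -2.56, standard error 0.18, edgeR adjusted p = 4.1e-09). GRHL3 differed the other way, at 0.399, 0.397 and 0.445 CPM in CAL27 and 1.43, 1.86 and 0.854 CPM in HSC3 vehicle libraries (log2 difference 1.73, standard error 0.34, edgeR adjusted p = 3.8e-04). GRHL2, the member of the family with the highest level per length in both lines, differed least, with 127 ± 0.702 against 105 ± 3.56 CPM (SD, n = 3, log2 difference -0.28, standard error 0.047, edgeR adjusted p = 8.0e-05). The 3 grainyhead-like genes thus differed between the lines in different directions and sizes.

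TFAP2A was higher in HSC3 cells, with 224 ± 7.09 against 98.1 ± 2.56 CPM (SD, n = 3, log2 difference 1.19, standard error 0.057, edgeR adjusted p = 4.9e-11). Its paralog TFAP2C was lower, with 24.6 ± 1.91 against 48.7 ± 0.391 CPM (SD, n = 3, log2 difference -0.98, standard error 0.064, edgeR adjusted p = 1.9e-09). OVOL1 was lower in HSC3 cells at 0.988, 0.864 and 0.369 CPM against 3.10, 3.34 and 3.79 CPM (log2 difference -2.21, standard error 0.41, edgeR adjusted p = 2.1e-04). Of its exons, 27.3% lie under an annotated gene on the opposite strand, 16.8% of those of TFAP2A do, and the use of strand in counting is not given in the sources used here, so their counts are uncertain to that extent. KLF5 was higher in HSC3 cells, with 570.2 ± 18.9 against 348 ± 21.2 CPM (SD, n = 3, log2 difference 0.71, standard error 0.059, edgeR adjusted p = 3.1e-08).

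TP63 was at 851 ± 27.9 CPM in CAL27 and 805 ± 9.05 CPM in HSC3 vehicle libraries (SD, n = 3). The log2 difference was -0.080 (95% interval -0.18 to 0.022, edgeR adjusted p = 0.16). This value depends on the scaling. When library totals replaced TMM, the median gene moved by -0.27, 64.3% of called genes were lower in HSC3 cells against 51.3% with TMM, and the TP63 difference was -0.35 (edgeR adjusted p = 2.4e-06). It also passed with DESeq2's size factors (-0.12, edgeR adjusted p = 0.035), with the DESeq2 Wald test (-0.12, adjusted p = 0.014), when counts were divided by the counts per molecule (-0.12, edgeR adjusted p = 0.037) and without HSC3 DOX library 1 (-0.087, edgeR adjusted p = 0.042). PITX1 was higher in HSC3 cells, with 37.9 ± 5.75 against 28.8 ± 1.75 CPM (SD, n = 3, log2 difference 0.39, standard error 0.12, edgeR adjusted p = 0.0099). That call was lost with library totals (0.12, edgeR adjusted p = 0.41) and without HSC3 vehicle library 1 (0.29, edgeR adjusted p = 0.069).

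**Figure D2:**
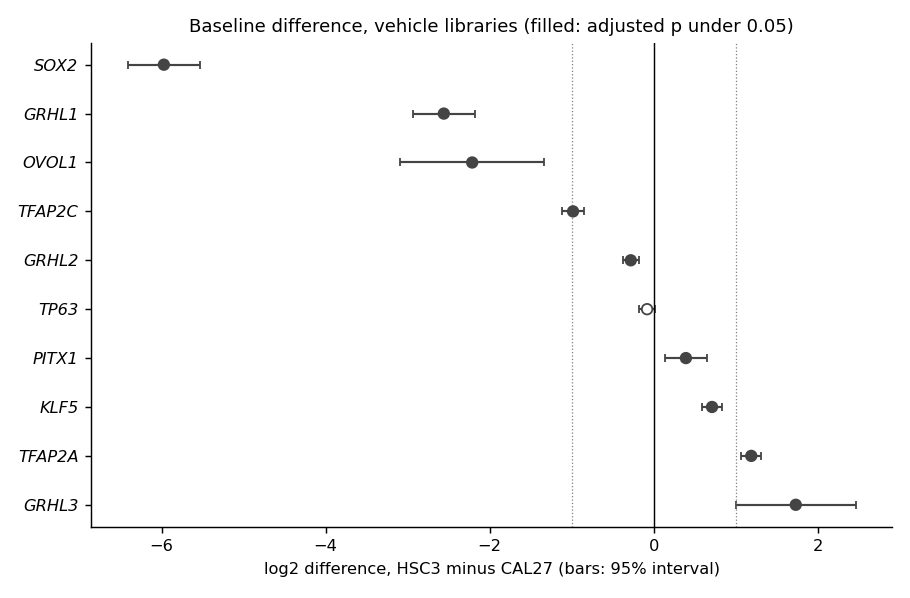
Log2 difference of each gene between HSC3 and CAL27 vehicle libraries (horizontal, points), with its 95% interval from the fit of all 12 libraries and dotted lines at a 2-fold difference. SOX2 sits at -5.97 and GRHL3 at 1.73, and TP63 is the only open point, which marks an adjusted p of 0.05 or more.

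The DOX comparison asks how the levels of these factors differ once the MUC1 shRNA has been induced. In CAL27 cells 4 of the 10 members were lower with DOX (TP63, SOX2, KLF5 and GRHL1) and 3 were higher (TFAP2A, TFAP2C and OVOL1) at an adjusted p under 0.05 (edgeR quasi-likelihood test, Benjamini-Hochberg over 19239 genes). Over all genes tested, 21.8% were lower and 22.6% higher, so the share of members that rose was close to that of all genes. Past a 2-fold change 3 members were lower, TP63, SOX2 and KLF5, and 0 were higher, against 5.11% and 1.31% of all genes. In HSC3 cells 3 of the 10 were lower (TP63, KLF5 and SOX2) and 0 higher, with SOX2 in the test only through its vehicle libraries, against 15.4% lower and 13% higher of 18021 genes. TFAP2A did not pass in HSC3 cells (edgeR unadjusted p = 0.048, adjusted p = 0.13), and the DESeq2 Wald test called 0 members higher there. Past a 2-fold change TP63 and, with the same limit, SOX2 were lower and 0 members were higher, against 4.4% and 1.58% of all genes. The median log2 fold change over the members was -0.24 in CAL27 and -0.11 in HSC3 cells, against -0.0052 and -0.0097 over all genes tested.

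TP63 was at 877, 821 and 854 CPM with vehicle and 431, 434 and 408 CPM with DOX in CAL27 cells. HSC3 cells had it at 807, 813 and 795 CPM with vehicle and 366, 337 and 344 CPM with DOX. The groups were far apart in both lines, and the replicates of each group were close to each other. The log2 fold change was -1.01 in CAL27 cells (standard error 0.040, edgeR adjusted p = 9.4e-14) and -1.21 in HSC3 cells (standard error 0.056, edgeR adjusted p = 1.9e-07). The fall was 0.20 larger on the log2 scale in HSC3 cells (standard error 0.067, interaction edgeR adjusted p = 0.046), which passed narrowly. The interaction adjusted p was 0.0056 to 0.18 over 17 alternatives, and 13 of these gave an adjusted p above 0.05. They include leaving out any 1 library other than CAL27 DOX library 6 or HSC3 DOX library 1, which gave differences of -0.21 to -0.16.

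MIR944, a microRNA gene within an intron of TP63, had 18, 14 and 12 counts in CAL27 vehicle and 4, 4 and 9 counts in CAL27 DOX libraries. Its log2 fold change was -1.24 (standard error 0.58, edgeR adjusted p = 0.091), and it did not pass the filter on low counts in HSC3 cells. These are reads of poly(A) libraries on the annotated hairpin and not mature microRNA.

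KLF5 was at 373, 335 and 337 CPM with vehicle and 164, 156 and 172 CPM with DOX in CAL27 cells. HSC3 libraries showed it at 576, 549 and 586 CPM with vehicle and 299, 274 and 305 CPM with DOX. Each DOX library was under each vehicle library of its line, while the HSC3 DOX libraries remained above the CAL27 DOX libraries. The log2 fold change was -1.09 in CAL27 cells (standard error 0.045, edgeR adjusted p = 2.1e-13) and -0.97 in HSC3 cells (standard error 0.062, edgeR adjusted p = 1.4e-06), the second just short of a 2-fold change. The difference between the lines was 0.12 (95% interval -0.054 to 0.30, interaction edgeR adjusted p = 0.35).

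SOX2 had 3825, 3069 and 3330 counts in CAL27 vehicle and 1280, 1128 and 1366 counts in CAL27 DOX libraries, or 27.8 ± 0.442 and 11.3 ± 0.859 CPM (SD, n = 3). All 3 DOX libraries were well under all 3 vehicle libraries. The log2 fold change was -1.31 (standard error 0.061, edgeR adjusted p = 9.9e-13). HSC3 vehicle libraries had 58, 38 and 44 counts of SOX2 and HSC3 DOX libraries had 2, 2 and 12. SOX2 passed the HSC3 filter only through the vehicle libraries. Divided by the counts per molecule, the DOX counts give 0.115, 0.219 and 1.04 molecules. A count above 0 needs at least 1 molecule, so the values under 1 show that this average is rough at such low counts. The fitted log2 fold change was -3.38 (95% interval -5.46 to -1.31, edgeR adjusted p = 0.020). Since SOX2 entered this test only through the group in which it is high, that p does not support a fall by itself. The call was lost without HSC3 vehicle library 1 (adjusted p = 0.095, edgeR), 2 (adjusted p = 0.083, edgeR) or 3 (adjusted p = 0.059, edgeR). It was also lost without HSC3 DOX library 2 (adjusted p = 0.053, edgeR). The log2 fold change ran from -4.88 to -2.96 over the 12 alternatives that gave a value for SOX2 in HSC3 cells. TP63 and KLF5 had values in 13 alternatives there, so SOX2 was not tested in every setting.

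The interaction gave SOX2 a log2 fold change 2.14 lower in HSC3 than in CAL27 cells (log2 difference -2.14, standard error 0.44, edgeR adjusted p = 0.0025), from the same few HSC3 molecules and with the HSC3 DOX group near 0. When counts were divided by the counts per molecule its adjusted p was 0.060, and over 17 alternatives it was 1.9e-06 to 0.060. SOX2-OT in CAL27 cells was at 1.38, 1.12 and 1.02 CPM with vehicle and 0.793, 0.524 and 0.342 CPM with DOX, and the log2 fold change was -1.11 with a standard error of 0.26 (edgeR adjusted p = 0.0014). With all 12 libraries in 1 fit that adjusted p was 0.13. HSC3 vehicle libraries had 16, 26 and 40 counts of SOX2-OT and HSC3 DOX libraries had 72, 23 and 18, and the groups overlapped (log2 fold change 0.024, standard error 0.74, edgeR adjusted p = 0.99). The difference between the lines in SOX2-OT did not pass (log2 difference 1.13, standard error 0.70, interaction edgeR adjusted p = 0.30).

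**Figure D3:**
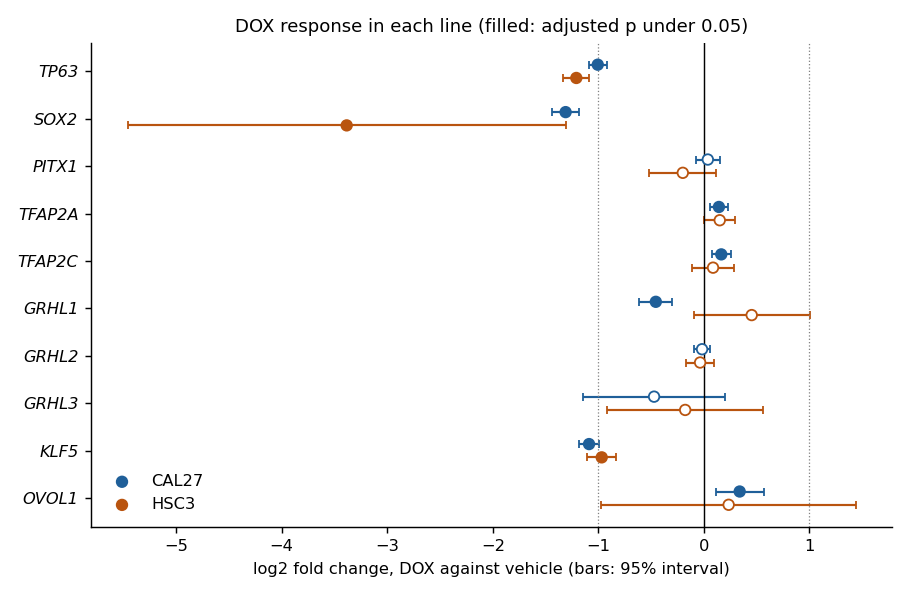
Log2 fold change with DOX of each gene (horizontal, points) in CAL27 and HSC3 cells, with 95% intervals, filled points for an adjusted p under 0.05 and dotted lines at a 2-fold change. TP63, SOX2 and KLF5 lie left of -0.9 in both lines, with an HSC3 interval for SOX2 from -5.46 to -1.31, and GRHL1 lies on opposite sides of 0 in the 2 lines.

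GRHL1 was at 11.4, 11.1 and 12.9 CPM with vehicle and 8.72, 8.40 and 8.78 CPM with DOX in CAL27 cells (log2 fold change -0.46, standard error 0.075, edgeR adjusted p = 4.3e-05), a call that was lost with all 12 libraries in 1 fit (adjusted p = 0.056, edgeR). The HSC3 levels were 1.54, 2.31 and 2.19 CPM with vehicle and 2.39, 2.33 and 3.57 CPM with DOX. The HSC3 DOX libraries were all above the vehicle libraries, the nearest by a small margin, and the change did not pass the test (log2 fold change 0.45, 95% interval -0.096 to 1.00, edgeR adjusted p = 0.22). The responses of the 2 lines differed by 0.91 (standard error 0.24, interaction edgeR adjusted p = 0.013), and the adjusted p of the difference was 0.0016 to 0.040 over 17 alternatives. For the other grainyhead-like genes the difference between lines did not pass. GRHL2 had a log2 fold change of -0.017 (95% interval -0.096 to 0.062, edgeR adjusted p = 0.76) in CAL27 and -0.036 (95% interval -0.17 to 0.10, edgeR adjusted p = 0.74) in HSC3 cells. GRHL3 was at 0.217 to 0.398 CPM with DOX against 0.397 to 0.445 CPM with vehicle in CAL27 cells (log2 fold change -0.47, 95% interval -1.15 to 0.20, edgeR adjusted p = 0.26). For HSC3 cells the levels were 1.01 to 1.57 CPM against 0.854 to 1.86 CPM (log2 fold change -0.18, 95% interval -0.92 to 0.56, edgeR adjusted p = 0.76), so the data bound a change of GRHL3 only by these intervals.

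TFAP2A in CAL27 cells was at 101, 98.0 and 95.6 CPM with vehicle and 106, 105 and 114 CPM with DOX (log2 fold change 0.14, standard error 0.041, edgeR adjusted p = 0.0077). The rise was small and its call was lost without CAL27 vehicle library 2 (adjusted p = 0.053, edgeR) or 3 (adjusted p = 0.081, edgeR). TFAP2A in HSC3 cells was at 223, 232 and 217 CPM with vehicle and 229.5, 257 and 261 CPM with DOX. The groups overlapped through HSC3 DOX library 1, which had the most counts per molecule (log2 fold change 0.15, standard error 0.067, edgeR adjusted p = 0.13), and without that library the value was 0.21 (edgeR adjusted p = 0.0014). TFAP2C in CAL27 cells was at 48.7, 48.4 and 49.1 CPM with vehicle and 57.0, 54.5 and 52.8 CPM with DOX (log2 fold change 0.16, standard error 0.043, edgeR adjusted p = 0.0033). With all 12 libraries in 1 fit the calls of TFAP2C (adjusted p = 0.067, edgeR) and TFAP2A (adjusted p = 0.078, edgeR) in CAL27 cells were lost. The HSC3 levels ran from 22.7 to 26.5 CPM with vehicle and from 25.6 to 26.8 CPM with DOX (log2 fold change 0.087, 95% interval -0.11 to 0.29, edgeR adjusted p = 0.55).

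TFAP2A shares its locus with the antisense RNAs TFAP2A-AS1 and TFAP2A-AS2, whose exons overlap its own by 438 and 941 bp. TFAP2A-AS2 was at 5.61 ± 0.133 CPM with vehicle and 6.82 ± 1.21 CPM with DOX in CAL27 cells (SD, n = 3, log2 fold change 0.28, standard error 0.11, edgeR adjusted p = 0.041). The call was narrow and the groups overlapped, with CAL27 DOX libraries at 5.71, 6.64 and 8.11 CPM and vehicle libraries at 5.65, 5.46 and 5.72 CPM. No alternative was run for TFAP2A-AS2. It stood in HSC3 cells at 9.80 ± 0.416 and 12.1 ± 1.33 CPM (SD, n = 3, log2 fold change 0.30, standard error 0.12, edgeR adjusted p = 0.097). TFAP2A-AS1 did not pass the test, with log2 fold changes of 0.078 (edgeR adjusted p = 0.76) in CAL27 and 0.44 (edgeR adjusted p = 0.21) in HSC3 cells. Reads of TFAP2A and of these RNAs cannot be told apart where exons overlap unless counting used strand.

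OVOL1 in CAL27 cells was at 3.10, 3.34 and 3.79 CPM with vehicle and 4.52, 4.25 and 4.21 CPM with DOX (log2 fold change 0.34, standard error 0.11, edgeR adjusted p = 0.014). Each DOX library was above each vehicle library, but the call was lost without CAL27 vehicle library 1 (adjusted p = 0.10, edgeR) or 2 (adjusted p = 0.061, edgeR) and in 1 fit of all 12 libraries (adjusted p = 0.64, edgeR). HSC3 vehicle libraries had 114, 71 and 44 counts of OVOL1 and HSC3 DOX libraries had 47, 116 and 174, and the groups overlapped widely (log2 fold change 0.24, 95% interval -0.97 to 1.44, edgeR adjusted p = 0.81). PITX1 was at 27.7 to 30.8 CPM with vehicle and 28.5 to 31.01 CPM with DOX in CAL27 cells (log2 fold change 0.038, 95% interval -0.075 to 0.15, edgeR adjusted p = 0.62). HSC3 cells had levels of 31.4 to 42.5 CPM with vehicle and 26.5 to 36.9 CPM with DOX (log2 fold change -0.20, 95% interval -0.52 to 0.12, edgeR adjusted p = 0.36). In both lines the PITX1 groups overlapped.

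Of all 10 members, the interaction test called the response to DOX lower in HSC3 cells for TP63 and SOX2 and higher for GRHL1. The TP63 call was lost in 13 of 17 alternatives, and that of SOX2 rests on HSC3 DOX counts of 2, 2 and 12. For all genes this difference was called lower for 12.3% and higher for 8.25%, so counts this small are not a result about the members as a set. For the other 7 the difference did not pass, with 95% intervals that ran from -0.16 to 0.18 for TFAP2A, -0.16 to 0.12 for GRHL2, -0.27 to 0.11 for TFAP2C, -0.054 to 0.30 for KLF5, -0.60 to 0.13 for PITX1, -0.74 to 1.32 for GRHL3 and -1.31 to 1.09 for OVOL1. Of the RNAs at the loci of the members not yet named, STPG1, which lies across the end of GRHL3 on the opposite strand with no exon in common, had log2 fold changes of 0.12 (edgeR adjusted p = 0.13) in CAL27 and -0.086 (edgeR adjusted p = 0.52) in HSC3 cells. LINC02800 and GRHL3-AS1 did not pass the filter, with at most 18 and 4 counts in a library. OVOL1-AS1 had 8 to 20 counts in CAL27 and 0 to 8 counts in HSC3 libraries, and in CAL27 cells it did not pass the test (log2 fold change -0.16, edgeR adjusted p = 0.83).

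Most of the listed genes of the basal layer that are linked to p63 were lower with DOX in both lines. The list was chosen with earlier results of these data known, so its counts describe the listed genes and are no test of such genes at large. Of 22 basal squamous p63-linked genes, 18 were lower and 4 higher in CAL27 cells, and 18 were lower and 0 higher in HSC3 cells, at an adjusted p under 0.05 over all genes. The shares of all genes were 21.8% lower and 22.6% higher in the CAL27 comparison, and 15.4% and 13% in that of HSC3 cells. The median log2 fold change was -0.58 in CAL27 and -0.61 in HSC3 cells, against -0.0052 and -0.0097 over all genes. Past a 2-fold change 10 and 7 of them were lower, against 5.11% and 4.4% of all genes. KRT14, a keratin of the basal layer, went from 603 ± 16.8 to 81.1 ± 8.22 CPM in CAL27 cells (SD, n = 3, log2 fold change -2.90, standard error 0.060, edgeR adjusted p = 2.6e-14). KRT14 in HSC3 cells went from 1239 ± 140 to 338.5 ± 52.9 CPM (SD, n = 3, log2 fold change -1.88, standard error 0.12, edgeR adjusted p = 1.2e-06). KRT15 and KRT17, also basal or stress keratins, had log2 fold changes of -2.28 and -1.72 in CAL27 cells. CLCA2 and KRT6A were among the largest falls in HSC3 cells, with log2 fold changes of -1.91 and -1.19. The genes of the list that rose in CAL27 cells included LAMA3 and LAMB3, which code for laminin chains of the basement membrane, with log2 fold changes of 0.48 and 0.25. LAMA3 fell in HSC3 cells (log2 fold change -0.30, edgeR adjusted p = 0.0026), and its response differed between the lines (interaction edgeR adjusted p = 3.2e-06). Keratin genes share sequence, and their counts are uncertain where the counting could split reads between paralogs.

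The listed genes of terminal differentiation, the program of suprabasal cells, were lower or did not pass the test, with 1 exception in CAL27 cells. Of 22 such genes, 19 were tested in CAL27 cells, with 9 lower and 1 higher, and 12 in HSC3 cells, with 5 lower and 0 higher. Over all genes 21.8% were lower and 22.6% higher in the CAL27 comparison, and 15.4% and 13% in that of HSC3 cells. The list's median log2 fold change was -0.34 in CAL27 and -0.60 in HSC3 cells, against -0.0052 and -0.0097 over all genes. KRT13, a suprabasal keratin of oral mucosa, went from 24.9 ± 0.948 to 2.44 ± 0.719 CPM in CAL27 cells (SD, n = 3, log2 fold change -3.37, standard error 0.16, edgeR adjusted p = 4.4e-07). CSTA, a cornified envelope protein, fell in both lines (log2 fold changes -0.75 and -0.56). PPL, which codes for periplakin, rose by 0.18 in CAL27 cells and had a log2 fold change of -0.64 in HSC3 cells (interaction edgeR adjusted p = 7.1e-06).

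Of 14 epithelial junction genes linked to GRHL and OVOL factors, 3 were lower and 5 higher in CAL27 cells, and 2 were lower and 6 higher in HSC3 cells. The shares of genes that were lower were near those of all genes (21.8% in CAL27 and 15.4% in HSC3 cells), and those of genes that were higher stand beside 22.6% and 13% of all genes. The medians were 0.043 and 0.37 on the log2 scale, against -0.0052 and -0.0097 over all genes. EPCAM, an epithelial adhesion molecule, rose in both lines, with log2 fold changes of 0.40 in CAL27 and 0.87 in HSC3 cells (interaction edgeR adjusted p = 0.0065). ST14, a membrane protease of the epithelial barrier, fell by 0.20 and by 0.73 on the log2 scale. Of 10 mesenchymal regulators and genes, 9 were tested in each line, and 0 were lower and 2 higher in each. With 22.6% of all genes higher in CAL27 and 13% in HSC3 cells, counts this small are not a result about the list. The called genes were CDH2 (log2 fold change 0.27, edgeR adjusted p = 1.3e-04) and ZEB1 (0.55, edgeR adjusted p = 0.049) in CAL27 cells, and FN1 (2.22, edgeR adjusted p = 1.5e-08) and SPARC (0.78, edgeR adjusted p = 4.8e-06) in HSC3 cells. ZEB1, at low counts, falls outside the rule for named genes and was named after its value was seen.

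Of 28 other epithelial transcription factors, 26 were tested in CAL27 cells, with 11 lower and 6 higher, and 25 in HSC3 cells, with 7 lower and 6 higher. Of all genes 21.8% were lower and 22.6% higher in the CAL27 comparison, and 15.4% and 13% in that of HSC3 cells, so the share that rose in CAL27 cells was near that of all genes. The medians were -0.0083 and 0.027, also near those of all genes. TP73, the paralog of TP63, was lower in both lines, from 66.1 ± 1.71 to 24.5 ± 0.986 CPM in CAL27 (SD, n = 3, log2 fold change -1.43, standard error 0.045, edgeR adjusted p = 3.5e-15) and from 16.1 ± 2.51 to 8.92 ± 0.977 CPM in HSC3 cells (SD, n = 3, log2 fold change -0.86, standard error 0.14, edgeR adjusted p = 0.0010). ZNF750, a p63 target and differentiation factor, had a log2 fold change of -1.96 in CAL27 cells and was under 0.5 CPM in every HSC3 library. EHF, an epithelial ETS factor, moved in opposite directions in the 2 lines. It went from 892 ± 24.9 to 687 ± 60.0 CPM in CAL27 and from 501 ± 27.3 to 813 ± 63.2 CPM in HSC3 cells (SD, n = 3, interaction edgeR adjusted p = 2.3e-06).

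**Figure D4:**
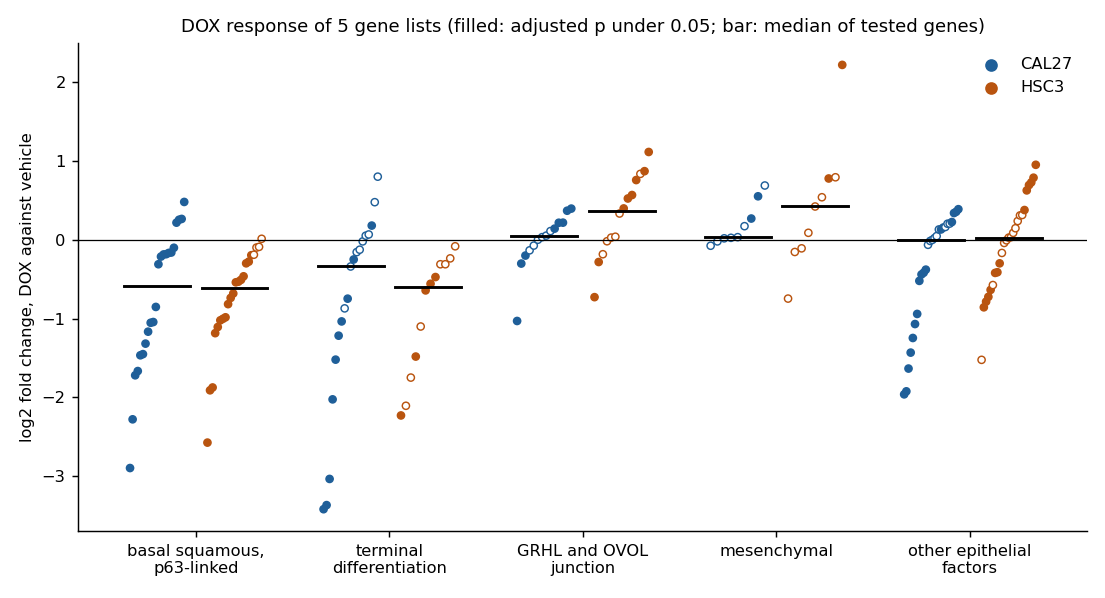
Log2 fold change with DOX (vertical) of each tested gene of 5 lists (horizontal) in CAL27 and HSC3 cells, with filled points for an adjusted p under 0.05 and a bar at the median. Most basal squamous genes lie under 0 in both lines, with medians of -0.58 and -0.61, while the other epithelial factors spread to both sides of 0.

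The genes most like TP63, SOX2 and KLF5 were sought over 3 log2 differences, the baseline difference and the DOX response in each line, among the 9562 genes whose log2 CPM averaged 3 or more. The nearest to TP63 were MATN2 (distance 0.19), MOSPD2 (0.22) and IGFBP6 (0.23). The nearest to KLF5 were SNX30 (0.19), VLDLR (0.21) and UBA6 (0.24). No gene came as close to SOX2, for which ESPN (1.36), FAM83F (1.44) and PTPRZ1 (1.62) were nearest. SOX2 passed the level cut only through CAL27 cells, with HSC3 means of 0.445 CPM with vehicle and 0.0425 CPM with DOX. Its HSC3 response here (-3.44) rests on DOX counts of 2, 2 and 12, so its distances are uncertain. The distance is in log2 units over the 3 log2 differences and describes likeness of pattern only.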

How the data were processed

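Poly(A) RNA of cells cultured in triplicate was isolated with TRIzol and made into libraries with a TruSeq Stranded mRNA kit. The authors deposited gene counts, 1 table per line, with whole numbers that are not normalized; the submitters' processing notes name FastQC 0.11.9, STAR 2.7.9a, Subread 2.0.1, featureCounts and GRCh38. The annotation, the strand setting and the handling of duplicates are not given in the sources used here.

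Each DOX comparison was fitted within its line, and the baseline and the difference between lines in 1 fit of all 12 libraries, with edgeR 4.0.16 in R 4.3.3 (TMM, filterByExpr at a minimum count of 10 and 15 in total, two-sided robust quasi-likelihood F-test, Benjamini-Hochberg adjustment over all genes tested). Calls used an adjusted p under 0.05, alone or with a log2 fold change above 1 in size. Standard errors are the log2 fold change over the square root of F, and 95% intervals use the t distribution with the fit's degrees of freedom. An exact permutation test of 3 against 3 libraries cannot go below p = 0.1 and was not used. RPKM used the union of GENCODE v44 exons, and 38934 of 39368 symbols matched that annotation. Counts per molecule were estimated for each library from its zeros among genes that the other libraries of its group place at a few counts. The steps were tested on simulated data, and replicate libraries differed by more than sampling noise.

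The members and lists were chosen with earlier results of these data known. Named genes were all members, MUC1, RNAs at the members' loci, up to 3 called list genes in each direction whose log2 CPM averaged 3 or more, and the 3 genes nearest to TP63, SOX2 and KLF5. Alternatives were DESeq2 1.42.0 (size factors and Wald test), library totals, no filter, counts divided by the counts per molecule, 1 fit of all 12 libraries, a block for the replicate number, transcript length, and each library left out. Same-numbered HSC3 vehicle and DOX libraries had correlations of their deviations of -0.092, 0.097 and -0.088, so the numbers were not taken as pairs.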

Additional observations from a re-analysis of the deposited data

Results flagged for a closer look

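In 3 members the response to DOX differed between CAL27 and HSC3 cells by the interaction test (edgeR quasi-likelihood test, adjusted over all genes). Of all genes tested, 12.3% had a lower and 8.25% a higher response in HSC3 cells, so this count is not a result about the members as a set. The log2 fold change of TP63 was lower in HSC3 than in CAL27 cells (log2 difference -0.20, edgeR adjusted p = 0.046), with a fall in both lines. Of 17 alternatives, 13 gave this difference an adjusted p above 0.05, with leaving out any of 10 libraries among them. That of SOX2 was lower in HSC3 cells (log2 difference -2.14, edgeR adjusted p = 0.0025), on HSC3 DOX counts of 2, 2 and 12. SOX2 passed the filter within HSC3 cells only through the vehicle libraries, and with counts per molecule the adjusted p of the difference was 0.060 (edgeR), so its size is not fixed by these data. That of GRHL1 was higher in HSC3 cells (log2 difference 0.91, edgeR adjusted p = 0.013), with an adjusted p of 0.0016 to 0.040 over 17 alternatives. It rests on 178 to 432 counts in the HSC3 libraries, an estimated 20.3 to 43.2 molecules. The fall of GRHL1 in CAL27 cells had an adjusted p of 0.056 in 1 fit of all 12 libraries (edgeR). Its HSC3 change did not pass (edgeR adjusted p = 0.22), with the nearest DOX and vehicle libraries at 2.33 and 2.31 CPM.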

How the results depend on the processing

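The falls of TP63 and KLF5 in both lines and of SOX2 in CAL27 cells held under every alternative run for them. So did the baseline differences of SOX2, GRHL1, GRHL2, GRHL3, TFAP2A, TFAP2C, OVOL1 and KLF5, and the GRHL1 difference between lines. In 1 fit of all 12 libraries the members called higher with DOX went from 3 to 0 in CAL27 cells and from 0 to 1 in HSC3 cells (TFAP2A, edgeR adjusted p = 0.045), and GRHL1 in CAL27 cells had an adjusted p of 0.056 (edgeR). Leaving out 1 library gave 1 to 3 members higher in CAL27 cells, with 1 without CAL27 vehicle library 2, and 0 to 1 in HSC3 cells, with 1 without HSC3 DOX library 1. The members with a lower response in HSC3 cells went from 2 to 1 with DESeq2 size factors and with no filter, to 0 with counts per molecule, and to 1 to 2 when 1 library was left out. Over all genes, the same fit of 12 libraries called 2337 lower and 2746 higher in CAL27 cells against 4203 and 4351. Without HSC3 vehicle library 2, 1514 genes were higher with DOX in HSC3 cells against 2342, and without HSC3 DOX library 1 the response was higher in HSC3 cells for 2614 genes against 1708. Directions turned only in values that did not pass the test. The difference between lines of TFAP2A was -0.0013 with library totals and -0.016 to 0.085 when 1 library was left out. That of GRHL2 was 0.00017 with DESeq2 size factors, 0.00027 with the DESeq2 Wald test and -0.029 to 0.021 when 1 library was left out, and that of OVOL1 was -0.65 to 0.32. The log2 fold changes when 1 library was left out were -0.042 to 0.0075 for GRHL2 in CAL27 cells, and -0.43 to 0.087 for GRHL3 and -0.33 to 0.64 for OVOL1 in HSC3 cells. With the replicate number as a block, 3 members were lower and 0 higher in HSC3 cells, and 5 were lower and 4 higher at baseline, so the block changed no call. No paired analysis was possible because the CAL27 DOX libraries carry other numbers than the vehicle libraries, which holds for the CAL27 DOX comparison and the difference between lines. The cause of these changes was not tested. Of the members' tests under alternatives, 558 kept direction and side of the threshold, 28 lost a call, 7 gained one and 16 turned. Low counts limit SOX2, OVOL1, GRHL3 and GRHL1 in HSC3 cells and GRHL3 in CAL27 cells.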
